A study of Mus musculus with 6 samples.

Results

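Liver of control mice was compared between day 28 and day 14 after partial hepatectomy, an operation that takes out some of the liver and leaves the remnant to regrow. The comparison was of 2 libraries, the OGA control of day 28 and the OGA control of day 14. Its members were the genes with at least 1 CPM (the count scaled by library size) in either library, 11758 of the 12027 genes in the count table. Both groups were male C57BL/6 mice, 8 weeks old, with the genotype OGAfl/fl, so that the Oga gene carried loxP sites and was not deleted in hepatocytes. Each library held equal amounts of RNA from whole liver of 3 mice, pooled before sequencing.

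The series held 6 libraries, 1 for each group. The other groups were OGA-KO (OGA-/-) on days 14 and 28, OGT-KO (OGT-/y) on day 28 and its control (OGTfl/y) on day 28, all after the same surgery. Per the labels the knockouts were specific to hepatocytes; the driver of the recombinase is not given in the sources used here. No unoperated liver and no day before day 14 was analysed here, so a level on either day could not be set against a resting liver. The time of day at which livers were taken, and whether mice had eaten, are not given in the sources used here.

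After partial hepatectomy, hepatocytes leave rest, copy their DNA and divide, and in the mouse most of this takes place in the first days. By the end of the second week liver mass is largely restored, and the later course is one of remodelling and of return to the routine tasks of the liver. These tasks are secretion of plasma proteins, storage and release of glucose, lipid synthesis, and the handling of bile acids and foreign compounds. Many of their genes also follow the daily clock, meals, growth hormone pulses and inflammatory cytokines.

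The day 14 library held 26504375 counts and the day 28 library 28971784. Reads of genes in mitochondrial DNA made up 6.66% of counts on day 14 and 6.91% on day 28, and the 100 most abundant genes took 44.6% and 44.9%. Pearson's r of log2 CPM between the 2 libraries, across genes that are not independent replicates, was 0.994, and it was also 0.994 between both 14-day OGA libraries. With 1 pooled library a side there was no spread between replicates to set a difference against, and no test of this pair alone. The interval after each log2 ratio is therefore a 95% counting interval, and it covers counting error only. A gene was counted as 2-fold different when its CPM ratio, day 28 over day 14, was at least 2 either way with at least 1 CPM in the higher library. All CPM given below were scaled to effective library sizes (TMM, a correction for the composition of each library), and a log2 ratio of 1 stands for a 2-fold difference.

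The control liver looked much alike on both days. The median log2 ratio over the 11758 genes was -0.0025, its quartiles were -0.12 and 0.12, and 96.0% of genes lay within 1.5-fold. By the size rule, 61 genes were higher on day 28 (0.519% of those measured) and 48 were lower (0.408%). Genes at low levels made up most of these: of the 109, 29 higher and 35 lower ones had 1 to 5 CPM in the higher library, and 34 had 10 CPM or more, 25 of them higher and 9 lower on day 28. The whole counting interval lay beyond 2-fold for 36 genes, 26 higher and 10 lower. Just inside the rule were Tsku (log2 -1.0043), Clec1a (1.01) and Myom3 (-1.01), and just outside were Foxm1 (0.9956), Rasgrp1 (-0.99), Tceal1 (-0.99) and Ifi27l2a (-0.99), all 7 chosen by their closeness to it. Since whole liver was sequenced, fewer cells of a type and less RNA per cell cannot be told apart in any of these ratios.

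**Figure D1:**
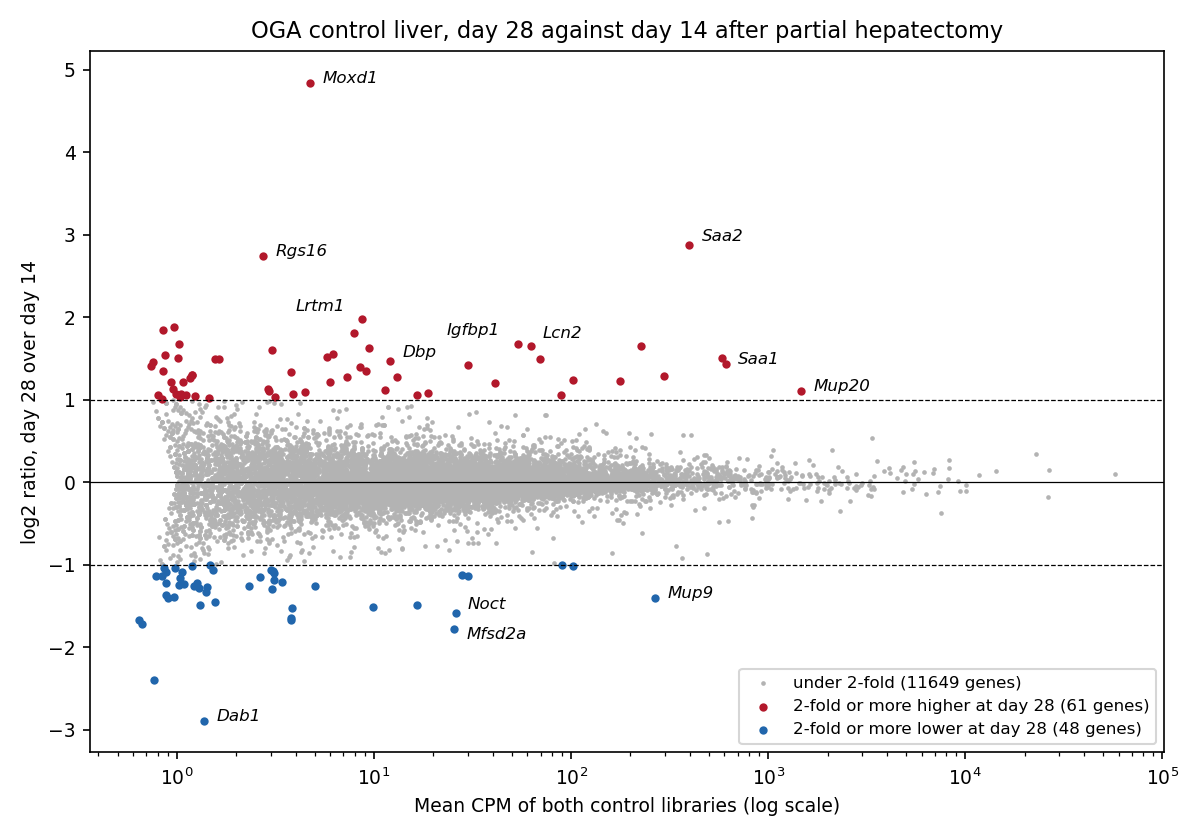
Log2 ratio of day 28 over day 14 in OGA control liver (y axis) against mean CPM of both libraries (x axis, log scale), 1 point per gene for 11758 genes. Red points (61) were at least 2-fold higher and blue points (48) at least 2-fold lower on day 28; Saa1, Saa2 and Mup20 stand out among the abundant genes and Moxd1 has the highest ratio.

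The largest abundant difference was in acute phase proteins, which hepatocytes secrete in response to inflammatory cytokines. Saa1 and Saa2 encode serum amyloid A, a lipoprotein component of plasma, Lcn2 encodes lipocalin-2, which binds bacterial iron carriers, and Orm2 encodes an orosomucoid, an abundant plasma carrier protein. Saa2 (ENSMUSG00000057465) had 2348 counts (95.8 CPM) on day 14 and 18362 counts (702 CPM) on day 28, a log2 ratio of 2.87 (2.81 to 2.93). Saa1 (ENSMUSG00000074115) had 8075 counts (330 CPM) and 23183 counts (886 CPM), a log2 ratio of 1.43 (1.39 to 1.46). Lcn2 had 30.1 and 94.4 CPM (log2 1.65, 1.53 to 1.77) and Orm2 60.6 and 143 CPM (log2 1.24, 1.15 to 1.33). Among the libraries of the series, Saa2 was highest in the day 28 control (702 CPM), followed by OGA-KO on day 28 (646), and stood at 53.8 in OGA-KO on day 14, 27.9 in the OGT control and 2.83 in OGT-KO. Saa1 and Saa2 are near-identical, so reads may have been split between them during counting.

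The rest of the acute phase list did not share this difference. Of its 32 measured genes, 4 were 2-fold higher and 0 were 2-fold lower, 17 ratios were positive and 15 negative, and the median was 0.04, or -0.02 without the Saa copies. The fibrinogen chains and other abundant plasma proteins lay close to equality. Hamp, which encodes the iron hormone hepcidin and is also induced by interleukin-6, was lower on day 28, at 431 CPM on day 14 and 253 CPM on day 28 (log2 -0.77, -0.81 to -0.72). Markers of neutrophils, cells that also make Lcn2, had ratios of the opposite sign to that of Lcn2. Ngp had 33 and 5 counts and S100a9 48 and 17 counts on days 14 and 28, log2 -2.40 (-4.53 to -1.45) and -1.48 (-2.48 to -0.77). The 5 measured neutrophil genes, Lcn2 included, summed to 37.1 and 97.9 CPM, nearly all of it Lcn2. Which cells the Lcn2 RNA came from, and the cause of the acute phase ratios, were not tested.

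The promoters of both serum amyloid genes are shown because Saa2 had the largest ratio among abundant genes and Saa1 is its close copy. The sequences are RefSeq's, build GRCm38.p6, 250 bases before to 50 after the start of each gene, and were matched by symbol, since the counts were made on another build (mm39). Saa1 lies at chr7:46742931-46743230 on the minus strand and Saa2 at chr7:46751583-46751882 on the plus strand, both printed 5′ to 3′ along the gene. Capitals mark the match to TTNNGCAA, a pattern bound by C/EBP factors, which drive acute phase genes in hepatocytes; the match lies on the opposite strand in both.
Saa1: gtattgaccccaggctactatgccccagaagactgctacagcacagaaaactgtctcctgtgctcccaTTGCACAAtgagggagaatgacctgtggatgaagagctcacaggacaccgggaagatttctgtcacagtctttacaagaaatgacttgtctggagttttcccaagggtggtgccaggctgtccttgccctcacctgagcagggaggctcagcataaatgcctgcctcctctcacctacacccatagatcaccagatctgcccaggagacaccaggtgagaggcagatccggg
Saa2: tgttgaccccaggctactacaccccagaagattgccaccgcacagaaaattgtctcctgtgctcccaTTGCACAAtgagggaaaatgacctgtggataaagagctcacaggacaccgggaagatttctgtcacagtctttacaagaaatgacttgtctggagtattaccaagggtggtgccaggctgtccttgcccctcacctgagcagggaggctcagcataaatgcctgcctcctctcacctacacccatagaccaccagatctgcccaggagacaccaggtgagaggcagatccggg
The match began 182 bases before the start of Saa1 and 183 bases before that of Saa2, and the 2 windows were identical at 287 of 301 aligned positions (95.3%). Searched on both strands, the pattern was found in the windows of all 4 acute phase genes that were 2-fold higher (Saa1, Saa2, Lcn2 and Orm2). It was also found in 14 of 31 windows of the whole acute phase list (45.2%), most of whose genes were not 2-fold different. For comparison, it was in 8.68% of 11924 windows of measured genes and in 10.8% of all 32851 windows. Among windows of all 2-fold genes, it was in 9 of 56 of the higher (16.1%) and 5 of 49 of the lower (10.2%). The kappa B pattern GGGANTTTC, also searched, was in 0 of the 31 acute phase windows and in 0.897% of windows of measured genes. This motif was chosen after the ratios were seen, and a match describes letters, not binding.

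**Figure D2:**
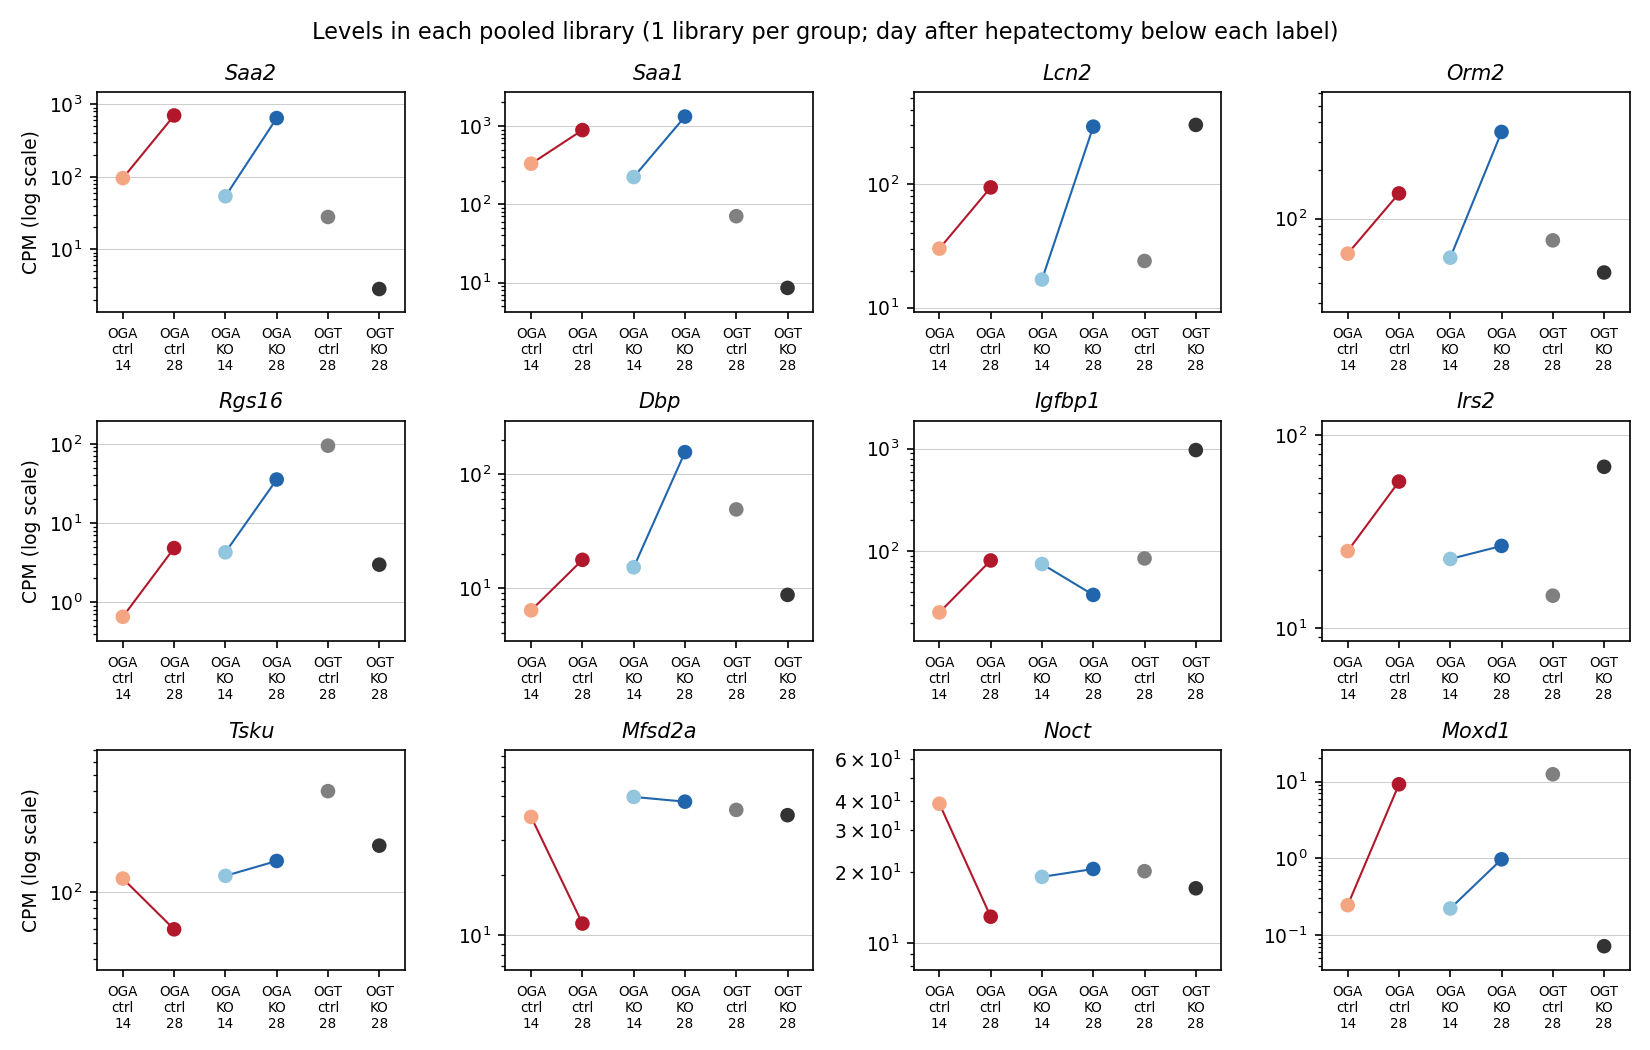
CPM on log scales (y axis) of 12 genes in each of the 6 pooled libraries (x axis, with the day below each label); a point is 1 library, and lines join day 14 to day 28 of the OGA control (red) and of OGA-KO (blue). The acute phase genes, Rgs16, Dbp and Moxd1 are higher on day 28 in both pairs, whereas Igfbp1 and Tsku differ in direction and Mfsd2a and Noct are apart mainly in the controls.

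Of 22 genes driven by the daily clock, 4 differed 2-fold between the days, 3 of them higher and 1 lower on day 28, with a list median of 0.08. Rgs16 encodes a regulator that shortens G protein signals and is strongly rhythmic in liver. It had 16 counts (0.65 CPM) on day 14 and 126 counts (4.81 CPM) on day 28, log2 2.74 (2.13 to 3.73). Dbp, a transcription factor that passes the clock on to liver enzymes, had 6.37 and 17.7 CPM, log2 1.46 (1.21 to 1.75). Noct, a rhythmic phosphatase of NADP(H), was lower on day 28, at 38.9 and 12.9 CPM, log2 -1.59 (-1.78 to -1.41). The other 2-fold gene of the list was Lonrf3, at 1.80 and 4.01 CPM (log2 1.13). Alas1, the rate-limiting enzyme of heme synthesis and a rhythmic gene of the same list, missed the rule at 477 and 252 CPM (log2 -0.92, -0.96 to -0.88).

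None of the 17 measured core clock genes was 2-fold different in the control pair (0 higher, 0 lower), and their median was 0.14 with a range from -0.78 to 0.79. On the activating side, Arntl, which encodes BMAL1, had a log2 ratio of 0.40, Npas2 0.78 and Clock 0.12. Among the repressors, Cry1 had 0.79, Cry2 0.14, Per1 -0.78, Per2 -0.23 and Per3 -0.35, while Nr1d1 (-0.03) and Nr1d2 (-0.01) were level. Nfil3, a repressor that competes with Dbp for its sites, had 0.57, and Rora had 0.24. Other genes of the list were Bhlhe41 at 0.73, Bhlhe40 at 0.09, Csnk1d at 0.10 and Csnk1e at 0.14. Ciart, below 1 CPM in both libraries with 23 and 18 counts, had -0.41. Higher Cry1, Npas2, Arntl and Nfil3 thus stood beside lower Per1 and Per2 on day 28. For Per3, with 109 and 91 counts, the counting interval included equality (-0.77 to 0.06), and that of Per2 came close to it (-0.45 to -0.02). In the OGA-KO pair Cry1 had -0.60, Npas2 -0.88, Arntl -0.96, Nfil3 -0.33, Per1 0.95, Per2 1.23 and Per3 2.30. These 7 genes, picked out after their values were seen, thus had the opposite sign in both pairs, a difference that was not tested. The E-box CACGTG, the site of BMAL1 and CLOCK, was in 4 of 21 windows of clock genes (19.05%), 4 of 56 of the higher genes (7.14%), 4 of 49 of the lower genes (8.16%) and 9.79% of windows of all measured genes.

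The major urinary proteins, pheromone carriers that male liver makes in large amounts under growth hormone pulses, held the most abundant differences. Mup20, the pheromone darcin, had 932 CPM on day 14 and 2008 CPM on day 28 (log2 1.11, 1.08 to 1.13). Of 20 measured copies, 7 were 2-fold higher, from Mup20 to Mup15 (110 and 345 CPM, log2 1.65, 1.59 to 1.71), and 2 were 2-fold lower. The lower ones were Mup9, at 388 and 146 CPM (log2 -1.41, -1.46 to -1.35), and Mup10, at 4.77 and 2.02 CPM. The family thus did not differ as a block, and its median ratio was 0.27 with 14 positive and 6 negative. These copies are near-identical, so the ratio of a single copy is uncertain; over all copies the family took 1.21% of counts on day 14 and 1.55% on day 28. In OGA-KO the share was 0.967% and 0.968% on these days, and it was 0.236% in the OGT control.

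**Figure D3:**
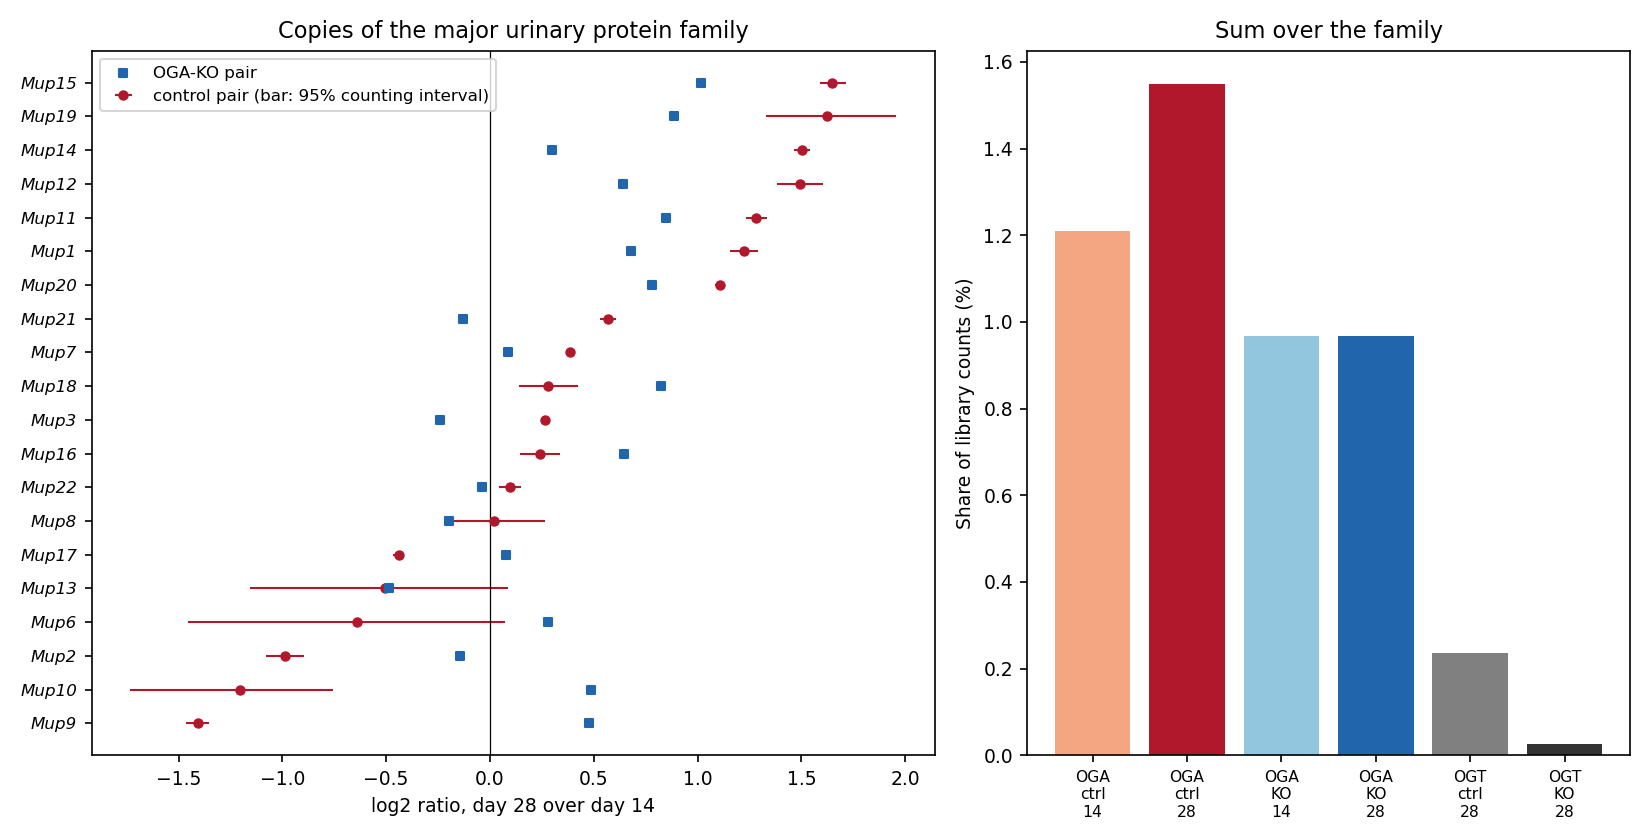
Left, log2 ratio of day 28 over day 14 (x axis) for each measured copy of the major urinary protein family (y axis), with the control pair as red circles with 95% counting intervals and the OGA-KO pair as blue squares. Right, share of library counts (%, y axis) of the whole family in each of the 6 libraries, 1.21% and 1.55% in the controls of days 14 and 28.

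The male-biased list, which holds some of these copies, differed unevenly. Moxd1, a copper monooxygenase-like gene on the male-biased list, had the highest ratio of all 2-fold genes: 6 counts (0.24 CPM) on day 14 and 241 counts (9.21 CPM) on day 28, log2 4.84 (4.09 to 6.69). Its other levels were 0.22 CPM in OGA-KO on day 14, 0.97 in OGA-KO on day 28, 12.4 in the OGT control and 0.07 in OGT-KO. Both control libraries of day 28 were thus high and both 14-day libraries low. Nat8f5, an N-acetyltransferase family member, had 5.10 and 13.1 CPM (log2 1.35, 1.07 to 1.67), and its near-identical relatives make that value uncertain. Of 28 male-biased genes 4 were 2-fold higher (Moxd1, Nat8f5, Mup20 and Mup11) and 0 lower, with a median of 0.22, or 0.16 without the major urinary proteins. Selenbp2, also male-biased, was lower on day 28, at 632 and 347 CPM (log2 -0.87, -0.91 to -0.83). Of 14 female-biased genes 1 was higher (Ntrk2, 16 and 45 counts) and 2 were lower (Cyp17a1, 141 and 51 counts, and Abcd2, 103 and 51 counts), with a median of 0.00. Cish, a feedback inhibitor of growth hormone signalling through STAT5, was lower on day 28, at 38.3 and 17.5 CPM (log2 -1.13, -1.29 to -0.97).

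Several genes under insulin control were apart. Igfbp1, a binding protein of insulin-like growth factors that insulin represses, had 25.5 CPM on day 14 and 81.6 CPM on day 28 (log2 1.68, 1.55 to 1.81). Irs2, an adaptor of the insulin receptor that is induced in fasting, had 25.1 and 57.6 CPM (log2 1.20, 1.06 to 1.34). Pfkfb3, which makes an activator of glycolysis, had 14.6 and 5.08 CPM (log2 -1.51, -1.82 to -1.23). In OGA-KO, Igfbp1 had 75.4 and 37.7 CPM and Irs2 22.8 and 26.7 on days 14 and 28, so that the day 14 control was the lowest OGA library for Igfbp1 and the day 28 control the highest for Irs2.

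The gene lists around these enzymes stayed near equality. Of 18 fasting genes 2 were higher (Igfbp1 and Irs2) and 0 lower, with a median of 0.03. The 21 genes of fatty acid synthesis had a median of 0.02 and the 16 on glucose and glycogen a median of 0.11. Each of these lists had 0 genes 2-fold higher and 1 gene 2-fold lower. Of 20 glycolytic genes 1 was lower, Pfkfb3. Among 16 genes of the integrated stress response 1 was lower: Asns, asparagine synthetase, at 41.1 and 18.6 CPM (log2 -1.14, -1.30 to -0.98). Its list mate Gdf15, a stress hormone, was higher at 9.35 and 17.3 CPM (log2 0.88, 0.65 to 1.12), short of the rule.

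Other 2-fold genes at 10 CPM or more came from several functions. Vnn1 and Vnn3, vanins, enzymes that release pantothenate, were higher on day 28: Vnn1 had 3.47 and 12.3 CPM (log2 1.81, 1.48 to 2.19) and Vnn3 16.3 and 43.7 CPM (log2 1.42, 1.26 to 1.59). Lrtm1, a leucine-rich repeat membrane protein, had 3.47 and 13.9 CPM (log2 1.98, 1.65 to 2.36). Mfsd2a, a carrier of lysophospholipids, had the lowest ratio among genes at this level, at 39.4 and 11.5 CPM (log2 -1.78, -1.97 to -1.59). The other 4 libraries held 40.2 to 49.7 CPM of Mfsd2a, so that the day 28 control stood apart from all of them. Camk2b, a calcium-dependent kinase, had 24.4 and 8.67 CPM (log2 -1.48, -1.72 to -1.27), and Tsku, a secreted leucine-rich protein, 121 and 60.1 CPM (log2 -1.0043, -1.09 to -0.92).

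Some lists were shifted as groups without a single 2-fold member. The clearest was cholesterol synthesis, the pathway switched on by SREBP2: 24 of 25 ratios were negative, 22 of them with the whole interval below equality, and the median was -0.28. By comparison, 49.5% of all measured genes had a positive ratio, and 1702 of the 11758 had the whole interval below equality. Counting intervals are narrower for abundant genes, so these interval counts also depend on level, and the 25 genes summed to 5221 CPM on day 14. Mvd, which makes isopentenyl diphosphate, had 39.7 and 23.8 CPM (log2 -0.73, -0.88 to -0.59), and Fdps, which makes farnesyl diphosphate, 30.4 and 20.4 CPM (log2 -0.58, -0.74 to -0.42). Their ratios in the OGA-KO pair were -0.59 and -0.53, with a list median of -0.12. Interferon response genes had 32 of 37 negative ratios and a median of -0.19, with the whole interval below equality in 16 and above it in 1. Among them, Isg15 had -0.58 (-0.85 to -0.33) and Usp18, which cleaves ISG15 from proteins, had -0.43 (-0.70 to -0.18). Matrix genes of activated stellate cells had 23 of 28 negative ratios and a median of -0.23, against -0.28 in OGA-KO. In the control pair the whole interval lay below equality in 9 of the 28 and above it in 2. The list summed to 2588 CPM on day 14 and 2627 CPM on day 28, so its total was not lower. Col1a2, a chain of collagen I, had 19.3 and 13.5 CPM (log2 -0.51, -0.71 to -0.31), and Timp2, a protease inhibitor, had -0.38 (-0.64 to -0.14).

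Drug-metabolising cytochromes P450 were shifted the other way, with 30 of 34 ratios positive and a median of 0.14. Cyp2c40 had the larger ratio of the 2 named members, 0.91 (0.69 to 1.14), and Cyp2b10, the usual readout of the receptor CAR, had 0.69 (0.44 to 0.95). Carboxylesterases had 12 of 14 positive ratios and a median of 0.15, with Ces2c at 0.45 (0.35 to 0.56). Respiratory chain subunits of mitochondrial DNA had 10 of 13 positive ratios and a median of 0.13. Cytosolic ribosomal proteins had 60 of 75 negative ratios, 31 with the whole interval below equality, and a median of only -0.05. Scaling matters at this size: the median of all measured genes was -0.0025, but -0.0355 with library totals and 0.0082 with DESeq2 size factors. Chaperones of the endoplasmic reticulum were level at -0.03, though Creld2 (-0.56, -0.68 to -0.45) and Syvn1 (-0.40, -0.46 to -0.34), both targets of the unfolded protein response, were lower. Over all 56 lists, 39 had no 2-fold member, 10 had a median above 0.1 and 10 a median below -0.1.

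**Figure D4:**
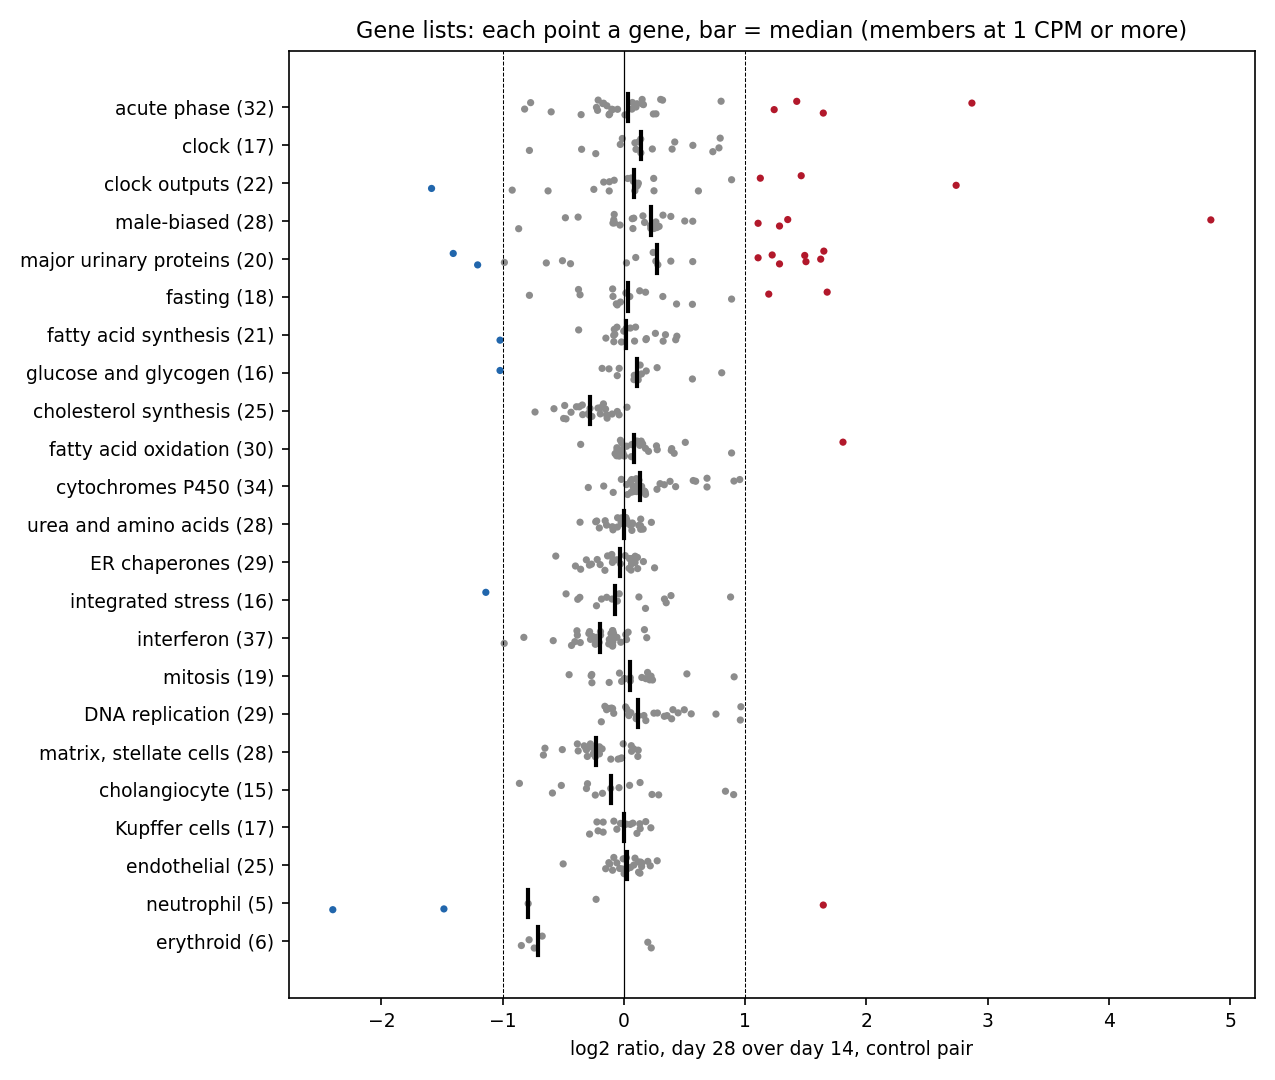
Log2 ratio of day 28 over day 14 in the control pair (x axis) for the measured genes of 23 lists (y axis, number of genes in brackets); a point is 1 gene, red and blue are 2-fold higher and lower, black bars are list medians and dashed lines mark 2-fold. Cholesterol synthesis (median -0.28), interferon (-0.19) and matrix genes (-0.23) lie left of 0, while major urinary proteins spread from -1.41 to 1.65.

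The lists of mitosis genes, DNA replication genes, G1 cyclins with their kinases and inhibitors, and YAP targets held no 2-fold member at these late days. Of 19 mitosis genes and 29 DNA replication genes 0 were 2-fold different, and their medians were 0.05 (12 positive ratios) and 0.12 (22 positive ratios). Tk1, the thymidine kinase of S phase, had 20.8 and 29.4 CPM (log2 0.50, 0.34 to 0.66), and Mcm7, a subunit of the replicative helicase, had 0.25, the lowest of the 6 MCM subunits, of which Mcm5 had 0.96. Cyclin D1 (Ccnd1), which carries hepatocytes from rest into the cycle, was lower on day 28, at 37.3 and 22.4 CPM (log2 -0.73, -0.89 to -0.58). The inhibitor p21 (Cdkn1a) was lower too, at 24.9 and 17.3 CPM (log2 -0.52, -0.70 to -0.35). The 17 targets of YAP, a growth regulator, had a median of 0.16, led by Ccn1 at 0.59 (0.34 to 0.85).

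Markers of hepatocytes dominated both libraries, as the label of liver asks. The 20 hepatocyte genes had a median of -0.02 and summed to 168680 and 175276 CPM, and Alb alone held 55835 and 59742 CPM. Kupffer cell (17 genes), endothelial (25) and quiescent stellate cell (16) lists had medians of 0.00, 0.03 and 0.09 with 0 genes 2-fold different. For the defining markers, Clec4f of Kupffer cells had 44.7 and 38.6 CPM, Stab2 of sinusoids 47.6 and 52.7, Lrat of stellate cells 5.39 and 7.22, and Krt19 of bile ducts 1.59 and 0.84. Cholangiocyte and progenitor markers had a median of -0.11, with Krt18 at -0.31 and Sox9, a progenitor factor, higher at 8.16 and 15.4 CPM (log2 0.91, 0.66 to 1.16). T, NK and B cell lists each had 1 gene with a row.

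Genes of blood and of other tissues were read out as well. The 4 globin genes summed to 166 CPM on day 14 and 102 CPM on day 28, and to 178 and 97.9 CPM in OGA-KO, so that both 28-day OGA libraries held less globin RNA. Globin copies are near-identical, and of the 6 erythroid genes only these 4 had negative ratios, while Klf1 and Alas2 had 0.20 and 0.23. The mesothelial gene Msln had 105 and 51 counts (log2 -1.11, -1.65 to -0.64). Of 15 exocrine pancreas genes with a row only Cela1 reached 1 CPM (28.9 and 26.8 CPM), and Ctrb1 and Pnlip were at 0 counts in both control libraries, which allowed at most 0.122 and 0.115 CPM. The OGA-KO library of day 28 stood apart here: the 15 genes summed to 246 CPM in it, against 27.5 CPM in OGA-KO of day 14 and 30.04 and 27.62 CPM in the controls of days 14 and 28. The part of these tissues in the ratios above was not tested.

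The enzymes of O-GlcNAc cycling, which the series targets, were near level in the controls. Ogt, the transferase, had 73.4 and 77.2 CPM (log2 0.07, -0.02 to 0.17) and Oga, the hydrolase, 62.2 and 67.2 CPM (log2 0.11, 0.01 to 0.21), against 10.4 and 12.8 CPM of Oga in OGA-KO. Over 10 genes of O-GlcNAc cycling and the hexosamine pathway, 7 ratios were negative and the median was -0.18. Uap1, which makes the sugar donor UDP-GlcNAc, had -0.35 (-0.50 to -0.20) and Gnpda1, which takes hexosamine back to glycolysis, 0.46 (0.31 to 0.61).

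The OGA-KO pair shares no library with the control pair and gave the same 2 days once more in liver with Oga deleted. In that pair 115 of 11858 genes were 2-fold higher (0.97%) and 41 lower (0.346%). Of the 109 genes of the control pair, 9 were 2-fold different in the same direction in OGA-KO, 8.26% of the control list and 5.77% of the OGA-KO list. The 7 higher in both were Saa1, Saa2, Lcn2, Orm2, Dbp, Rgs16 and Mup15, and the 2 lower in both were Dab1 and Slpi, named for this overlap after their values were seen. Moxd1 had a log2 ratio of 1.81 in OGA-KO (0.80 to 3.71, 6 and 24 counts). It stayed under 1 CPM there, so it is not among the 7. Dab1, an adaptor of the reelin receptors, had 61 and 7 counts in the controls (log2 -2.89, -4.59 to -2.09) and -2.01 in OGA-KO. Slpi, a protease inhibitor, had 57 and 21 counts (log2 -1.45, -2.33 to -0.79) and -1.05 in OGA-KO.

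Among the 7 genes higher in both pairs, 6 had a larger ratio in OGA-KO than in the controls. Lcn2 had a ratio of 4.11 there against 1.65, Dbp 3.36 against 1.46, Orm2 2.59 against 1.24, Saa1 2.57 against 1.43, Saa2 3.58 against 2.87 and Rgs16 3.03 against 2.74, while Mup15 had 1.02 against 1.65. Over the whole acute phase list the OGA-KO median was 0.60 with 8 genes 2-fold higher, against 0.04 with 4. The difference between the pairs was not tested, as each ratio comes from 2 libraries. Among all 109 genes, 70 (64.2%) had the same sign in both pairs, 43 of the 61 higher and 27 of the 48 lower ones, beside 55.6% of all measured genes. The median OGA-KO ratio was 0.22 for the higher and -0.05 for the lower genes, and r of the 2 sets of ratios across all genes was 0.138. Of the 109 genes, the day 28 control alone was the extreme of the 4 OGA libraries in 34, the day 14 control alone in 19, and each was at 1 end in 53. The 109 were chosen by the difference between these 2 controls, so such a position largely follows from the choice.

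**Figure D5:**
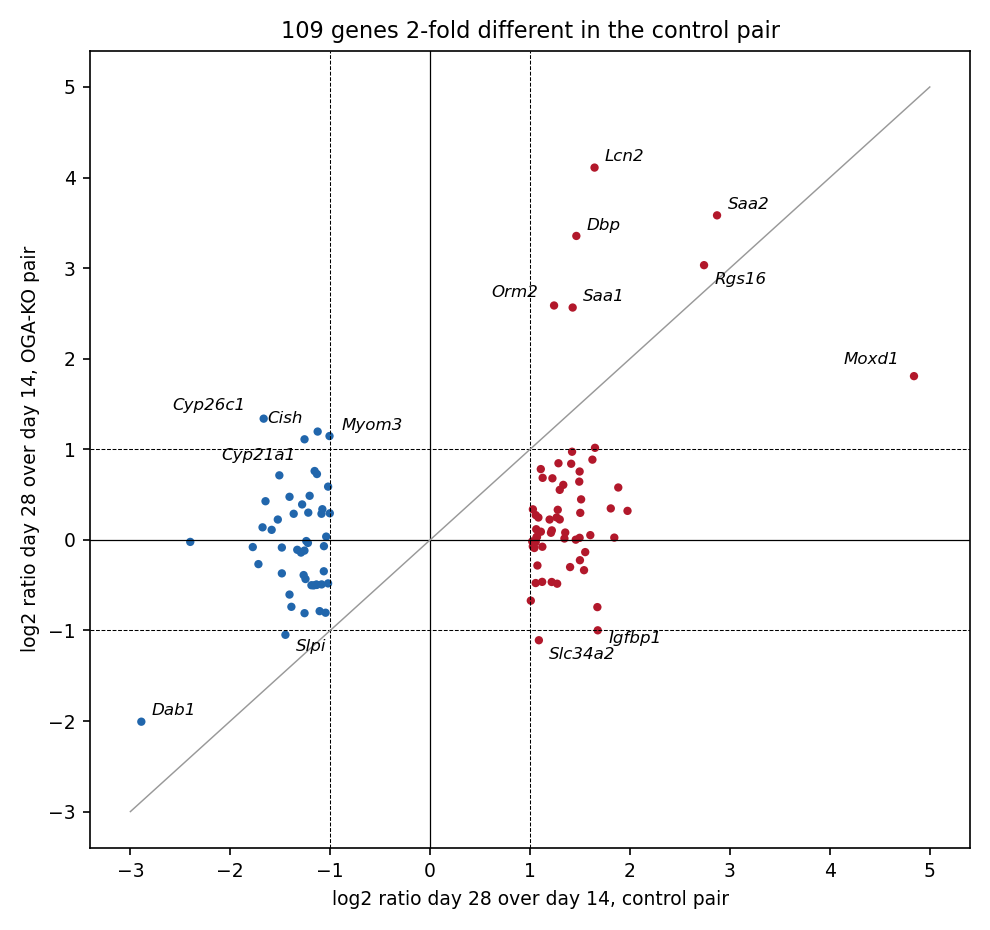
Log2 ratio of day 28 over day 14 in the OGA-KO pair (y axis) against the control pair (x axis) for the 109 genes 2-fold different in the control pair (red higher, blue lower); dashed lines mark 2-fold and the grey line equal ratios. Most points lie within 2-fold in OGA-KO. By the size rule, which asks for at least 1 CPM, 9 were 2-fold different in the same direction and 5 in the opposite one. Moxd1 also lies beyond 2-fold in the same direction (log2 1.81 in OGA-KO) but was under 1 CPM there.

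Day could be tested over the 4 OGA libraries together, with genotype and day as terms, which leaves 1 residual degree of freedom and tests the mean of both pairs, not the control pair alone. By edgeR's quasi-likelihood test with Benjamini-Hochberg adjustment, 1 of 11996 genes rose (0.00834%) and 0 fell, while 812 had an unadjusted p under 0.05. The gene was Rgs16, with a log2 of 3.01 and an adjusted p of 0.0328, higher on day 28 in both pairs. Its levels were 0.65 and 4.81 CPM in the controls and 4.26 and 35.4 CPM in OGA-KO. A fit with no genotype term and without the control of day 28 leaves 1 library on that day. Rgs16 had a log2 of 3.81 in it. The call was lost when the genotype term was dropped (log2 3.00). It was also lost in such fits that left out OGA-KO of day 14 (log2 4.93), the control of day 14 (2.24) or OGA-KO of day 28 (0.95). Saa2 missed the threshold (log2 3.23, adjusted p = 0.0625). DESeq2's Wald test on the same design called more. Of 7577 genes with an adjusted p, 11 rose (0.145%) and 4 fell (0.0528%). Saa2, Vnn3, Mup15, Mup11, Mup20 and Mup1 were among those that rose. The 4 that fell were Selenbp2, Serpina1e and the globin genes Hba-a1 and Hbb-bs.

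With the day 28 OGA-KO library left out, the fit compares the day 28 control with both 14-day OGA libraries, the control and OGA-KO, taken as replicates of day 14 with no term for genotype. By edgeR's quasi-likelihood test 21 of 11997 genes rose (0.175%) and 12 fell (0.1%). This fit uses both libraries of the control pair, so its differences are no independent support for the ratios above. The differences were 5.28 for Moxd1, 1.44 for Mup14, 1.58 for Mup12, 3.23 for Saa2, 1.28 for Orm2 and -1.96 for Mfsd2a. Saa1 (1.68), Lcn2 (2.01), Irs2 (1.27) and Lrtm1 (1.83) were also higher, and Tsku (-1.03), Pfkfb3 (-1.54) and Ccnd1 (-0.87) were lower. For Igfbp1, Noct and Dbp the level in the day 14 OGA-KO library lay between those of both controls.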

How the data were processed

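The authors deposited raw counts by Ensembl identifier, with both lanes (a target of 25 M reads) joined in 1 column per library. In the OGA columns the deposited CPM equalled counts over their column sum. STAR, Subread, edgeR and the build mm39 appear in the submitters' processing notes, with no versions or settings. RNA came from about 50 mg of liver by TRIZOL and an mRNA library kit, per the labels' protocols. The filter behind the 12027 rows is not given in the sources used here; every row had at least 28 counts over the 4 OGA libraries. Symbols were found for 12019 rows, and no positions were used.

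Ratios of the control pair were log2 CPM ratios on TMM effective library sizes from all 6 libraries (edgeR 4.0.16, R 4.3.3) with a prior count of 2, and intervals were exact Clopper-Pearson. They and the floor of 3 counts cover counting error only, since reads that carry no molecular identifier need not be separate molecules. The day test was edgeR's quasi-likelihood fit with filterByExpr. No group had replicate libraries, so its 1 residual degree of freedom is how far the control and OGA-KO day ratios disagree. The p-values rest on that disagreement, moderated by information from all genes. DESeq2 1.42.0, other scalings, prior counts and CPM minimums were alternatives. The procedure was tested on simulated data. Members and the 56 lists were chosen with earlier results of these data known. Genes named were the 12 highest and 12 lowest ratios at 10 CPM or more, the 5 most abundant 2-fold genes each way, up to 4 members of each list, the core clock genes, Ogt, Oga and genes past the day test; 4 of the 109 were predicted or unnamed and passed over. Defining cell type markers were named as well, and other genes are ones chosen after their values were seen. Some genes that this rule names are not reported here.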

Additional observations from a re-analysis of the deposited data

Results flagged for a closer look

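Of the 109 genes that were 2-fold different between the controls, 5 were 2-fold different in the opposite direction in the OGA-KO pair. They are listed for that reason, the difference between the pairs was not tested, and no group held enough libraries to look for a library far from the others. Slc34a2, a phosphate transporter, was higher on day 28 in the controls (69 and 159 counts, log2 1.088) and lower in OGA-KO (99 and 41 counts, log2 -1.1082). Cish, the inhibitor of STAT5 signalling, was lower in the controls (38.3 and 17.5 CPM, log2 -1.1259) and higher in OGA-KO (21.0 and 48.2 CPM, log2 1.1958). Cyp21a1, the steroid 21-hydroxylase, had 175 and 77 counts in the controls (log2 -1.2572) and 91 and 182 in OGA-KO (log2 1.1103). Myom3, a myomesin of striated muscle, had 49 and 25 counts in the controls (log2 -1.0073) and a log2 ratio of 1.1461 in OGA-KO. Cyp26c1, which breaks down retinoic acid, rested on the fewest counts, 25 and 7 in the controls (log2 -1.6661) and a log2 ratio of 1.3382 in OGA-KO.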

How the results depend on the processing

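The 109 genes that were 2-fold different depended mainly on how low levels were treated. With a minimum of 5 CPM there were 45, of which 32 were higher and 13 lower; with the nearer bound of the counting interval 36, of which 26 were higher and 10 lower; and with a prior count of 10 the lower genes numbered 29. Scaling mattered little: library totals gave 108 and shared 103 genes with the 109, DESeq2 size factors gave 108 and shared 107. At 5 CPM, 60.0% of genes had the same sign in OGA-KO. The 1 gene called over the 4 OGA libraries became 4 with no filter on low counts and 4 in a fit of all 6 libraries, adding Saa2, Ctrb1 and Pnlip in both, the last 2 of them pancreas genes with 904 and 727 counts in OGA-KO of day 28 and 0 in the other 5 libraries; it became 0 without the genotype term and 15 with DESeq2. Leaving out a library, again with no genotype term, gave 0 to 266 calls: 0 without OGA-KO of day 14, 1 without the control of day 14, 33 without OGA-KO of day 28 and 266 without the control of day 28. Rgs16 was not called without OGA-KO of day 14 (log2 4.93), the control of day 14 (2.24) or OGA-KO of day 28 (0.95), and was called without the control of day 28 (3.81); the cause was not tested. Of the list medians, that of cholangiocyte markers moved from -0.11 to 0.09 at 5 CPM and that of mitosis genes from 0.05 to -0.11, while the erythroid median was -0.24 without near-identical copies, a setting chosen after seeing the data. The log2 ratio of Moxd1 was 3.91 with a prior count of 10. No paired analysis was possible because each group is 1 pooled library and the replicate numbers only name it. A gene at 0 counts could have had up to 0.122 CPM on day 14 and 0.115 CPM on day 28.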

Other observations

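The genes in this section were picked after their values were seen. The control pair alone has no test. The fit of the day 28 control against both 14-day OGA libraries uses both libraries of that pair and is no independent support. In it the log2 differences were 0.78 for Ppp1r3c, 0.67 for G6pc and -1.75 for Igsf23. The replicative helicase, which opens DNA in S phase, has 6 MCM subunits, and each had a positive log2 ratio in the control pair: 0.45 for Mcm2, 0.39 for Mcm3, 0.56 for Mcm4, 0.96 for Mcm5, 0.76 for Mcm6 and 0.25 for Mcm7. Mcm5 and Mcm6 were low, with 51 counts of Mcm5 on day 14 and 108 on day 28, and 65 and 119 of Mcm6. Mcm7, with the smallest of these ratios, had 386 and 490 counts (15.8 and 18.7 CPM). Pole, a subunit of a replicative DNA polymerase, had 47 and 100 counts (log2 0.97). In the OGA-KO pair the subunits had ratios of -0.12, 0.08, -0.26, 0.03, 0.38 and -0.24 in the same order (Mcm2 to Mcm7). The 19 mitosis genes had 12 positive ratios in the controls, from -0.45 to 0.91, and their difference from the replication genes was not tested.

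Some genes of glucose release and storage were higher in the day 28 control beside Igfbp1 and Irs2. G6pc, the phosphatase that releases glucose, had 7303 and 11546 counts (log2 0.57), Ppp1r3c, which targets a phosphatase to glycogen, 1327 and 2482 (log2 0.81), and Pdk4, which slows pyruvate use in fasting, 123 and 245 (log2 0.89). In the OGA-KO pair their ratios were -0.83, -0.30 and -0.11. Pck1, the first enzyme of gluconeogenesis from pyruvate-derived oxaloacetate, was level at -0.05 in the controls. The 2-fold genes also included ones at low levels with little known role in liver: Igsf23 had 142 and 47 counts (log2 -1.65), Cox6b2, a testis form of a respiratory subunit, 142 and 46 (log2 -1.68), and Raet1d and Raet1e, ligands of an activating receptor of NK cells, 76 and 242 and 36 and 121 counts.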
